A study of Mus musculus with 3 samples.

Results

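The S100 genes encode small calcium-binding proteins, and 6 of them were followed across the cells of 3 single-cell RNA-Seq libraries: *S100a8*, *S100a9*, *S100a4*, *S100a6*, *S100a10* and *S100a11*. They were chosen by gene symbol, which matched 6 of the 17 S100 genes among the 27998 genes of the count tables. The libraries came from mice of 10 weeks (male C57BL/6J per the methods of the study) 3 days after a burn to the back and transection of the Achilles tendon, a model of heterotopic ossification, in which bone forms in soft tissue. Marrow was flushed, blood was separated on a Ficoll gradient from which the mononucleated cells were taken, and the injured tendon was dissociated enzymatically. Red cells were lysed in marrow and blood. The neutrophil-like cells of blood below are therefore those recovered in that fraction, and may differ from blood neutrophils as a whole. Cells were unsorted, no uninjured group was analysed here, and the number of mice behind each library was not given in the sources used here.

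Each site was 1 library, so a site cannot be told apart from its preparation or its library, and no comparison below has a replicate check or a test. Values are unique molecular identifiers (UMIs, counted transcript molecules) per 1000000 UMIs of the same cells, written CPM, with exact Poisson 95% intervals. Ratios carry exact binomial intervals, and shares of cells carry exact ones where given. All of these cover counting error only, and the spread between mice is unknown. In 3′ counting a molecule counts once whatever its length, so CPM was not scaled by length when genes were set side by side. Whether the genes differ in other ways in how fully they are counted was not tested.

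The marrow, blood and tendon tables held 1855, 2241 and 5629 barcodes, with medians of 22836, 8316 and 11082 UMIs, and 1813, 2146 and 4780 cells were kept. The kept cells of marrow and blood shared 2 barcodes, those of marrow and tendon 1, and those of blood and tendon 5. Clusters were built without the S100 genes and named as "-like" classes from marker genes, with 2 clusters of marrow (96 cells) and 2 of tendon (568 cells) left unnamed. All 16 neutrophil markers had UMIs in the most mature neutrophil-like cells of each site, summing to 80589 CPM in marrow, 57395 CPM in blood and 34733 CPM in tendon.

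S100 proteins bind calcium through EF-hand loops, mostly as dimers, and act on target proteins inside the cell. S100A8 and S100A9 pair into calprotectin, which fills the cytosol of neutrophils, withholds metals from microbes and, once released, signals danger through the receptor TLR4. S100A4 binds nonmuscle myosin, and its gene is also known as fibroblast-specific protein 1. S100A6 (calcyclin) binds the calcyclin-binding protein CACYBP, S100A10 (p11) has lost calcium binding and partners annexin A2, and S100A11 partners annexin A1.

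All 6 genes lie on mouse chromosome 3 of GRCm38. *S100a4* (chr3:90603771-90606045, plus strand) and *S100a6* (chr3:90612882-90624181, plus strand) are 6836 bases apart, with *S100a5* (chr3:90608523-90611780) between them. *S100a8* (chr3:90668978-90670035, plus strand) and *S100a9* (chr3:90692632-90695721, minus strand) are 22596 bases apart. *S100a11* (chr3:93520488-93526287, plus strand) and *S100a10* (chr3:93555080-93564643, plus strand) stand apart from these 4 and 28792 bases from each other. In marrow neutrophil-like cells *S100a4* and the nearby *S100a6* stood at 1.26 and 4189 CPM.

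The promoters of 4 members are shown because their levels set neutrophils apart in opposite ways: *S100a8* and *S100a9* made up a large part of the RNA of neutrophil-like cells, *S100a4* was nearly absent from them and the nearby *S100a6* was not. Each is the 300 bases from 250 before the annotated start (RefSeq, GRCm38.p6), written along the gene's own strand. The windows are chr3:90668821-90669120 (plus) for *S100a8*, chr3:90695672-90695971 (minus) for *S100a9*, chr3:90603520-90603819 (plus) for *S100a4* and chr3:90612644-90612943 (plus) for *S100a6*. Capitals mark exact matches to TATAAA (the TATA box), GAGGAAG (a core bound by ETS factors such as PU.1), TTGCNNAA (a C/EBP core), TGANTCA (AP-1) and CCAAT, searched on both strands.
*S100a8* promoter: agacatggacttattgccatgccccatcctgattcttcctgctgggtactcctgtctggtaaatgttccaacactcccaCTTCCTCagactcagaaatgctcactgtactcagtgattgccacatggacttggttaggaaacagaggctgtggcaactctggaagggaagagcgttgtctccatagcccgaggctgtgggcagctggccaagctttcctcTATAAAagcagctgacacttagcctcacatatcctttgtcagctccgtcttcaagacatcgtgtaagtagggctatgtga
*S100a9* promoter: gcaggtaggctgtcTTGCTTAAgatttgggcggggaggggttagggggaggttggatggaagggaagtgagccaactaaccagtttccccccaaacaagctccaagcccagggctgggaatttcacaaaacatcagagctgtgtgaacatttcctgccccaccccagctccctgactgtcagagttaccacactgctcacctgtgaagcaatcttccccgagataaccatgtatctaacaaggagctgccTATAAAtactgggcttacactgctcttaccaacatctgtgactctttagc
*S100a4* promoter: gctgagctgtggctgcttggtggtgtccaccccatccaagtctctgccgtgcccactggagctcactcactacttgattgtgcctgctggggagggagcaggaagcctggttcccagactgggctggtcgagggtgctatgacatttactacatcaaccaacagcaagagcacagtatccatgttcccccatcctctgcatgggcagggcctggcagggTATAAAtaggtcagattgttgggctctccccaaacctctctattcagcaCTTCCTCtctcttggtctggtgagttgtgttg
*S100a6* promoter: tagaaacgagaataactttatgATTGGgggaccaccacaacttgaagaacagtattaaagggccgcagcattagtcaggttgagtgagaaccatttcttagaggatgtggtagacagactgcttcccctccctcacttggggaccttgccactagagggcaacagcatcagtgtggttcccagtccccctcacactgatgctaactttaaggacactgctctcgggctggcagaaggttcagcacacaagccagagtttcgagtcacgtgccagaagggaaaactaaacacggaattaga
The TATAAA match of *S100a8* began 30 bases before its RefSeq start and that of *S100a4* began 31 bases before, while that of *S100a9* began at the start itself. The *S100a8* gene start given above (chr3:90668978, from GENCODE) lies upstream of both this match and the RefSeq start. The distance for *S100a8* therefore holds for the RefSeq start only. GAGGAAG was read on the minus strand in *S100a8* and *S100a4*, TTGCNNAA on the plus strand in *S100a9*, and CCAAT on the minus strand in *S100a6*, whose window held none of the other motifs. The window of *S100a11* held 2 matches to TGANTCA (a palindromic letter set, so both strands read), and the RefSeq table used here held no entry for *S100a10*. No matches overlapped each other. Among 32851 promoter windows of this length, TATAAA was found in 13.6%, GAGGAAG in 13.6%, TTGCNNAA in 10.8%, TGANTCA in 7.81% and CCAAT in 37.4%. A match describes letters and not a bound site.

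*S100a8* and *S100a9* made up a large part of the UMIs of a neutrophil-like cell, more than any other member in any class. The level of *S100a8* was 170355 CPM in the 1171 neutrophil-like cells of marrow, 153788 CPM in the 388 of blood and 73281 CPM in the 559 of tendon. *S100a9* stood at 174630, 162502 and 90225 CPM in the same order. Together they were 34.5%, 31.6% and 16.4% of all UMIs of these cells, so marrow and blood lay close and tendon lay lowest for both genes. Neutrophil-like cells were 64.6%, 18.1% and 11.7% of the cells of marrow, blood and tendon and held 97.4%, 95.7% and 82.6% of the *S100a8* UMIs and 98.1%, 97.1% and 83.8% of the *S100a9* UMIs.

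*S100a6* and *S100a11* were also high in neutrophil-like cells, and *S100a4* and *S100a10* were not. *S100a6* reached 4189 CPM in marrow, 13116 CPM in blood and 7886 CPM in tendon, and *S100a11* reached 2483, 7432 and 7193 CPM. *S100a4* stood at 1.26 CPM (0.89 to 1.74), 29.5 CPM (24.3 to 35.6) and 33.9 CPM (26.7 to 42.4) in marrow, blood and tendon. *S100a10* stood at 1.5 (1.09 to 2.02), 7.05 (4.60 to 10.3) and 41.5 CPM (33.5 to 50.8). After thinning every cell to 1000 UMIs, 0.172%, 0.519% and 2.79% of neutrophil-like cells held an *S100a4* UMI, against 93.2% of classical monocyte-like cells of blood. Thinning left out 6, 3 and 21 neutrophil-like cells, and without it the shares were 2.56%, 3.87% and 7.87% at medians of 22696, 8534.5 and 3496 UMIs, against all 293 classical monocyte-like cells of blood at 18804. The 4 higher members and these 2 therefore differed by orders of magnitude within the same cells.

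Set against all other cells of its library, a gene was called higher or lower at a 2-fold difference, with at least 100 UMIs over both groups. In marrow 4 of 6 members were higher and 2 lower in neutrophil-like cells, where 6.56% and 50.9% of the 9739 genes with that many UMIs were, with log2 ratios of 4.61 for *S100a8*, 5.05 for *S100a9*, 1.51 for *S100a6* and 1.67 for *S100a11*, and of −9.30 for *S100a4* and −8.91 for *S100a10*. The marrow ratios of *S100a8* and *S100a9* were 2.70 and 2.76 at a finer clustering (Leiden resolution 2) and 2.74 and 2.81 with no doublets removed. In blood it was again 4 higher and 2 lower against 9.88% and 56.7% of 8962 genes, with 6.76 and 7.38 for *S100a8* and *S100a9*, 3.00 and 3.36 for *S100a6* and *S100a11*, and −5.32 and −6.68 for *S100a4* and *S100a10*. In tendon 3 were higher and 2 lower against 9.56% and 67.0% of 12667 genes. There *S100a8* and *S100a9* had log2 ratios of 7.44 and 7.56, *S100a11* 2.62, *S100a4* −5.14 and *S100a10* −4.52, and *S100a6* at 0.96 missed the fold, in a library whose fibroblast-like and keratinocyte-like cells held 4982 and 8360 CPM of it, and passed it with totals without *S100a8* and *S100a9* (1.22) or each cell weighted equally (1.09). The *S100a6* call of marrow was lost (0.90) when promyelocyte-like cells were left out of the other cells, an alternative added after the data were seen. Another such alternative left out other cells that carried neutrophil granule transcripts (defined below). The ratios of *S100a8* and *S100a9* were then 4.96 and 5.48 in marrow, 7.70 and 9.11 in blood, and 9.08 and 9.58 in tendon. Under other settings *S100a4* and *S100a10* were still lower, at up to −3.37 and −2.18 in blood and −2.11 and −2.38 in tendon.

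**Figure D1:**
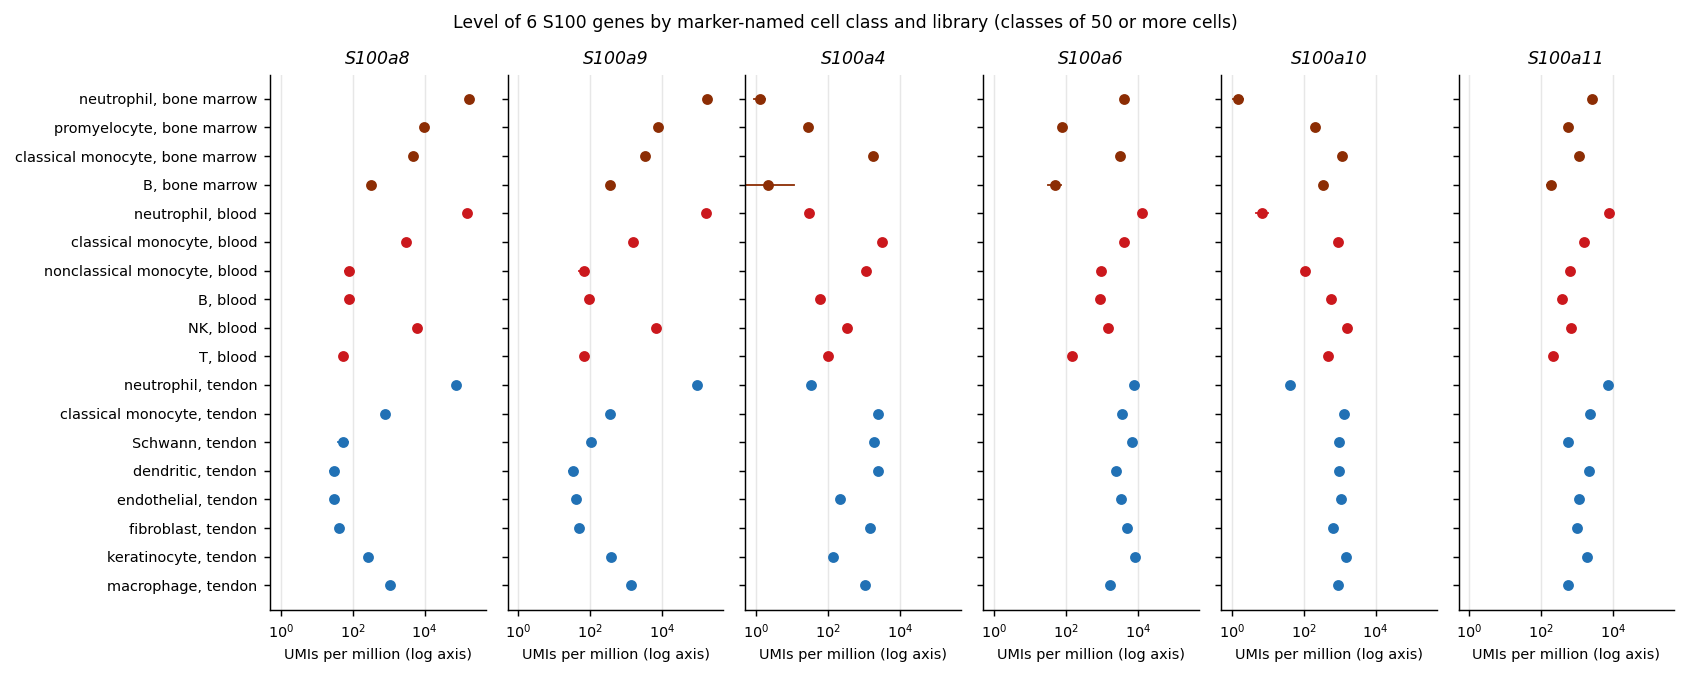
CPM of the 6 S100 genes (log axis) by cell class (50 or more cells) and library, with exact Poisson intervals for counting error only. *S100a8* and *S100a9* are at 73281 CPM or more in the neutrophil-like cells of each library, while *S100a4* and *S100a10* are at 41.5 CPM or less there.

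Marrow neutrophil-like and promyelocyte-like cells were split by maturity on 1000 UMIs of genes other than the 6 members, into azurophil (at least 5 UMIs of *Elane*, *Mpo*, *Prtn3*, *Ctsg* and *Ms4a3*, granule genes of promyelocytes), cycling (at least 2 of 8 mitosis genes), granule-high (at least 20 of *Ltf*, *Camp*, *Ngp* and *Cd177*, secondary granule genes) and mature (at least 3 of *Cxcr2*, *Csf3r*, *Il1b*, *Ccrl2*, *Il1r2* and *Msrb1*, genes of late neutrophils), in that order. *S100a8* stood at 54232 CPM in the 259 azurophil cells, 163633 in the 208 cycling cells, 202652 in the 614 granule-high cells and 173826 in the 196 mature cells. *S100a9* stood at 55435, 165215, 207677 and 180679 CPM. Both were highest in the granule-high cells, and the pair made up 11%, 32.9%, 41.0% and 35.5% of all UMIs in the same order. Azurophil cells were mixed in this respect: 75 of 259 had under 1% of their UMIs in the pair, 45 had 1 to 10% and 139 had 10% or more.

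*S100a6* and *S100a11* were highest in the last gate. *S100a6* stood at 97.9, 620, 5965 and 16530 CPM, and *S100a11* at 826, 1154, 3036 and 7325 CPM, so each was higher in every gate than in the one before. *S100a10* went the other way, from 93.7 CPM (88.3 to 99.4) in azurophil cells to 23.2 in cycling cells, 1.13 in granule-high cells and 1.35 CPM (0.279 to 3.95) in mature cells. *S100a4* was low throughout, at 12.5, 3.50, 0.754 and 6.31 CPM. The *S100a10* of the azurophil gate lay in its 114 promyelocyte-like cells (184 CPM) and not in its 145 neutrophil-like ones (2.83 CPM), whereas *S100a8* was 10996 CPM in the first and 97737 CPM in the second. *S100a4* was 24.2 CPM in the first and 0.834 CPM (5 UMIs) in the second, below the 6.31 CPM of mature cells. The cycling gate held 7 promyelocyte-like cells among its 208. Its *S100a10* share was 0% of a cell's UMIs at the 90th percentile and 0.142% in the highest cell. No neutrophil-like cell of marrow was above 0.0129%. Promyelocyte-like cells as a class (140 cells) held 9763 CPM of *S100a8*, 7824 of *S100a9*, 554 of *S100a11*, 211 of *S100a10*, 78.1 of *S100a6* and 27.7 of *S100a4*, so the pair led there in summed counts. The median promyelocyte-like cell had 0.0240% of its UMIs in *S100a8*, 0.0193% in *S100a9* and 0.0520% in *S100a11*. At the 90th percentile the pair was 8.48%, so its lead came from the upper cells of the class.

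In cycling cells against azurophil cells 3 of 6 members were higher and 2 lower, against 5.99% and 28.4% of 7818 genes, with *S100a6* at a log2 ratio of 2.66, *S100a8* at 1.59, *S100a9* at 1.58, *S100a11* at 0.48, *S100a4* at −1.84 and *S100a10* at −2.01. The last pair turned to 2.89 and 0.54 at a lower clustering resolution and to 2.39 and 0.61 with the libraries clustered together. *S100a11* passed the fold at resolution 2 (1.05) and with no doublets removed (1.16). With no doublets removed *S100a8* and *S100a9* were 3.39 and 3.42. Granule-high cells against cycling cells gave 2 higher and 1 lower of the 5 with enough UMIs, against 7.12% and 25.8% of 6908 genes, with *S100a6* at a log2 ratio of 3.27, *S100a11* at 1.40 and *S100a10* at −4.36. Promyelocyte-like cells were 114 of the 259 azurophil and 7 of the 208 cycling cells, and 0 of the granule-high and mature ones. The *S100a4* and *S100a10* ratios between gates were not recomputed without them. Mature cells against granule-high cells gave 2 of 4 higher, against 11.6% of 5567 genes, with *S100a6* at 1.47 and *S100a11* at 1.27, while *S100a8* at −0.22 and *S100a9* at −0.20 stayed within the fold. Over the whole course, mature against azurophil, 4 of 6 were higher and 1 lower, against 16% and 55.2% of 7347 genes: *S100a6* by 7.40, *S100a11* by 3.15, *S100a9* by 1.70 and *S100a8* by 1.68, and *S100a10* by −6.12. With no doublets removed *S100a8* and *S100a9* were 3.45 and 3.52, *S100a10* was −2.44 with joint clustering, and *S100a4*, at −0.99, passed the fold as lower under 6 settings (−2.67 at the most). The azurophil *S100a4* lay mostly in promyelocyte-like cells (24.2 CPM). In neutrophil-like azurophil cells it was 0.834 CPM, which is lower than in mature cells. In this order of gates most of the difference in *S100a8* and *S100a9* lay before the granule-high cells, and that in *S100a6* and *S100a11* ran on to the mature cells.

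**Figure D2:**
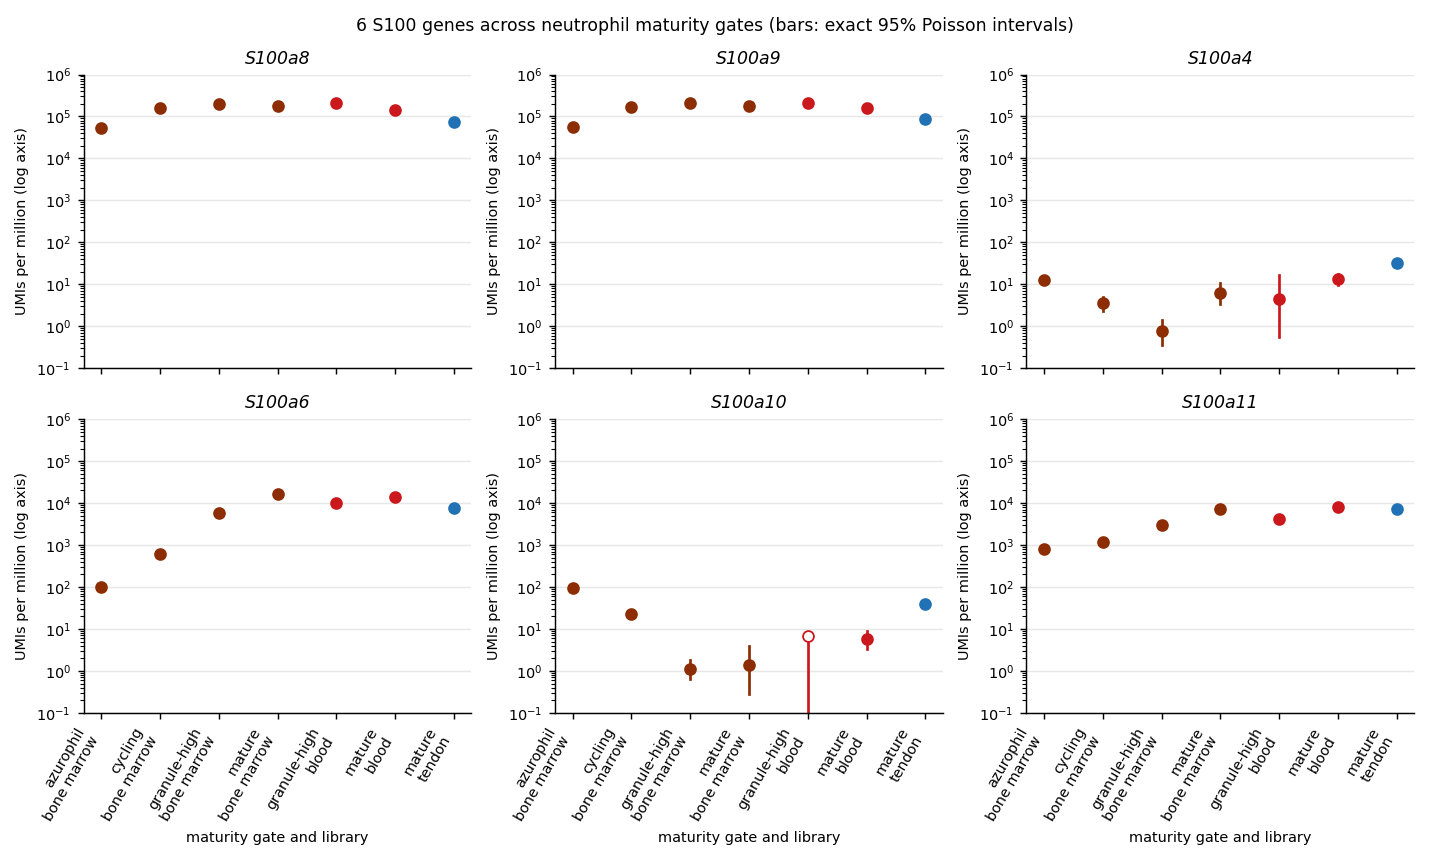
CPM of the 6 S100 genes (log axis) in the neutrophil maturity gates of each site, with exact Poisson intervals for counting error only. In marrow *S100a6* goes from 97.9 CPM in azurophil to 16530 CPM in mature cells, while *S100a10* goes from 93.7 to 1.35 CPM. Of the marrow gates shown, only azurophil and cycling hold promyelocyte-like cells. The open point is the limit that a count of 0 allows (6.78 CPM).

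Blood neutrophil-like cells were mostly of the mature gate (359 of 388), those of marrow mostly not, so the sites were compared within gates. Without gates, 3 of the 5 members with enough UMIs were higher in blood than in marrow, against 13.1% of 7877 genes: *S100a6* at a log2 ratio of 1.65, *S100a11* at 1.58 and *S100a4* at 4.55. Of the 109 *S100a4* UMIs of blood, 65 lay in 1 cell of the cycling gate with 64336 UMIs, and without it *S100a4* was 12.1 CPM and the ratio 3.26 (2.60 to 3.93). Within mature cells 0 of 4 members passed the fold in either direction, where 5.02% of 3327 genes did, and *S100a8* stood at 173826 in marrow and 146292 CPM in blood (−0.25), *S100a9* at 180679 and 155676 (−0.21), *S100a6* at 16530 and 13779 (−0.26) and *S100a11* at 7325 and 8012 (0.13). Within granule-high cells, of which blood had 21, 0 of 4 passed either, where 16.5% of 5287 genes did, with *S100a6* at 0.77 as the largest of them. At matched gates the ratios of *S100a6* and *S100a11* thus lay between −0.26 and 0.77, below those without gates.

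Tendon cells of the mature gate (523 cells) held less of the pair than those of blood. *S100a8* stood at 71893 CPM in tendon and 146292 CPM in blood, a log2 ratio of −1.02 (−1.03 to −1.02), and *S100a9* at 88710 and 155676 CPM, −0.81 (−0.82 to −0.80). *S100a6* stood at 7814 and 13779 CPM (−0.82) and *S100a11* at 7354 and 8012 CPM (−0.12). *S100a4* at 32.4 against 13.3 CPM (1.29, 0.71 to 1.88) and *S100a10* at 40.4 against 5.69 CPM (2.83, 2.08 to 3.65) were higher in tendon, where 2.87% of thinned mature cells held a UMI of either gene counted alone, against 0.557% in blood, and *S100a4* missed the fold (0.93) with each cell weighted equally. So 2 of 6 members were higher and 1 lower, against 16.4% and 12.8% of 3426 genes, and over all neutrophil-like cells 1 was higher (*S100a10*, 2.56) and 1 lower (*S100a8*, −1.07), against 16% and 11.9% of 3687 genes. This *S100a8* call was lost, at between −0.99 and −0.95, at resolution 2, with the S100 genes kept for clustering, with joint clustering and with the stricter cell filter. Over all neutrophil-like cells *S100a4* was within the fold at 0.20. Without the blood cell that held 65 of its 109 blood UMIs it was 1.48 (0.93 to 2.05), past the fold. In mature cells *S100a4* and *S100a10* were 3.76 and 3.88 with no doublets removed.

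The share of *S100a8* and *S100a9* in a cell varied more in tendon. The pair was a median 34.9% of a mature marrow cell's UMIs, 29.5% in blood (18.3% at the 10th and 37.7% at the 90th percentile) and 14% in tendon (2.05% to 24.8%). These cells also differed in depth, with medians of 11273, 8360 and 3520 UMIs, and *S100a8* averaged 1968, 1290 and 293 UMIs per cell. Since the pair is so large a part of the total, scaling to UMIs without it lowers all other tendon to blood ratios by 0.27 and takes *S100a6* to −1.08 and *S100a9* to −1.08, so that 5 members pass the fold.

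Other measures moved with the tendon values. Markers of other cell types were present in mature tendon cells: all 9 fibroblast markers had UMIs, summing to 129 CPM, and all 8 keratinocyte markers, summing to 99.0 CPM, where those lists were at 0 in the mature cells of marrow and blood. All 12 macrophage markers had UMIs there (265 CPM), against 6 of 12 in blood (119 CPM) and 5 of 12 in marrow (19.8 CPM). Tendon fibroblast-like cells held 1466 CPM of *S100a4* and 671 CPM of *S100a10*, and the part of RNA from such cells in the tendon values of these genes was not tested. With other clustering or filter settings, blood neutrophil-like cells held up to 156 CPM of *S100a10* and 114 CPM of *S100a4*. The ungated tendon to blood ratio then turned to between −1.89 and −1.75 for *S100a10* and to between −1.76 and −1.59 for *S100a4*, which was 0.20 as first computed and 2.48 with no doublets removed. The *S100a4* ratio was 1.48 without the blood cell that held 65 of its 109 blood UMIs. Tendon neutrophil-like cells also fell into a larger cluster of 377 cells with 84315 CPM of *S100a8* and a smaller one of 182 cells with 34412 CPM. The median depth of the smaller one was 2606.5 UMIs against 4040. *Cxcl2* and *Il1b* were among the 10 first leading genes of both clusters, and *Ccl3*, *Ccl4* and *Tnf* among those of the smaller one only.

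**Figure D3:**
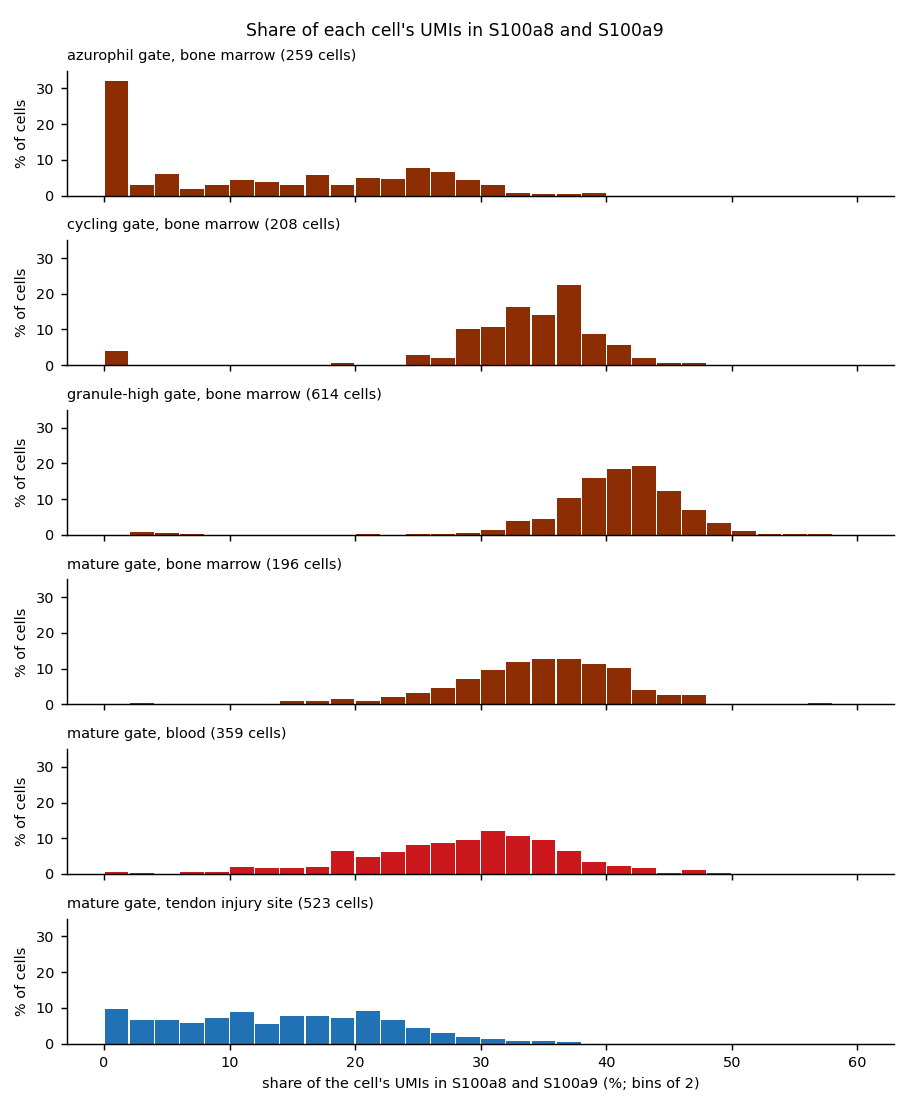
Percent of each cell's UMIs in *S100a8* and *S100a9* together, by gate and site, as histograms in bins of 2 percentage points, each bar the percent of the gate's cells. Mature cells centre at 34.9% in marrow, 29.5% in blood and 14% in tendon, and tendon cells spread from 2.05% to 24.8% between the 10th and 90th percentiles.

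*S100a8* and *S100a9* UMIs were also found in monocyte-like cells, at lower levels than in neutrophil-like cells. Classical monocyte-like cells held 4893 CPM of *S100a8* and 3285 of *S100a9* in marrow (278 cells), 3133 and 1546 CPM in blood (293 cells) and 788 and 348 CPM in tendon (422 cells). The marrow class joined a cluster of 160 cells (4162 CPM of *S100a8*, 2547 of *S100a4*) with another of 118 cells (5468 and 1257 CPM). The cluster of 118 had *Prtn3*, *Elane*, *Ctsg* and *Mki67* among its leading genes, beside *F13a1*, *Ly6c2* and *Ccr2*. A few cells carried a large part of the pair in each library's class. Cells outside the neutrophil-like and promyelocyte-like classes with at least 5 UMIs of *Ngp*, *Camp*, *Ltf*, *Retnlg* and *Lcn2* per 1000, a cut added after the data were seen, numbered 11 in marrow, 5 in blood and 16 in tendon. Of those in tendon, 7 were fibroblast-like and were not high in the pair. They held 27.1 CPM of *S100a8*, against 41.1 CPM in the other fibroblast-like cells. The 4 such cells among 278 in marrow held 25.9% of the *S100a8* UMIs and 38.2% of those of *S100a9*, the 4 of 293 in blood 27.1% and 47.9%, and the 2 of 422 in tendon 23.3% and 44.9%. Without them the levels were 3709 and 2077 CPM in marrow, 2325 and 821 CPM in blood, and 610 and 193 CPM in tendon. The pair was unevenly spread among the rest, since in blood the top 29 of 289 cells by share held 82.2% of the *S100a8* UMIs, while the median cell had 0.0166% of its UMIs in the pair. That median was near the 0.0101% of T-like cells of blood, and in marrow the median monocyte-like cell had 0.0694%, below the 0.0910% of B-like cells. At the 90th percentile monocyte-like cells had 1.45% in marrow and 0.563% in blood, against 0.171% in marrow B-like and 0.0319% in blood T-like cells, so the class stood above these cells in its upper cells and not in its median cell of marrow.

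In monocyte-like cells of blood and tendon the other 4 members made up more of the RNA than the pair did, with 0.956% against 0.468% of UMIs in blood and 0.981% against 0.114% in tendon, and in marrow a little less (0.726% against 0.818%). The order in marrow rested on its 4 granule-carrying cells, since without them the pair at 3709 and 2077 CPM summed to less than *S100a4* at 1853, *S100a6* at 3146, *S100a10* at 1148 and *S100a11* at 1126 CPM. In blood *S100a4* stood at 3093, *S100a6* at 4062, *S100a10* at 890 and *S100a11* at 1518 CPM. *S100a4* and *S100a10* were thus far above their levels in the neutrophil-like cells of blood, and classical monocyte-like cells held 78.9% of the *S100a4* UMIs of marrow and 78.7% of those of blood. After thinning, an *S100a4* UMI was found in 93.2% of them in blood and an *S100a6* UMI in 97.6%, against 5.26% and 8.64% of T-like cells.

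The balance of *S100a8* and *S100a9* differed between the classes. Neutrophil-like cells had 0.976 *S100a8* UMIs per *S100a9* UMI in marrow, 0.946 in blood and 0.812 in tendon, and promyelocyte-like cells 1.25. Classical monocyte-like cells without the granule-carrying cells had 1.79 (1.75 to 1.82) in marrow, 2.83 (2.74 to 2.93) in blood and 3.15 (2.92 to 3.41) in tendon. T-like cells of blood had 0.856 (0.743 to 0.986), which overlaps neutrophil-like cells, and fibroblast-like cells of tendon 0.853. Classical monocyte-like cells therefore held more *S100a8* than *S100a9* in each of the 3 libraries, and the neutrophil-like cells less.

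**Figure D4:**
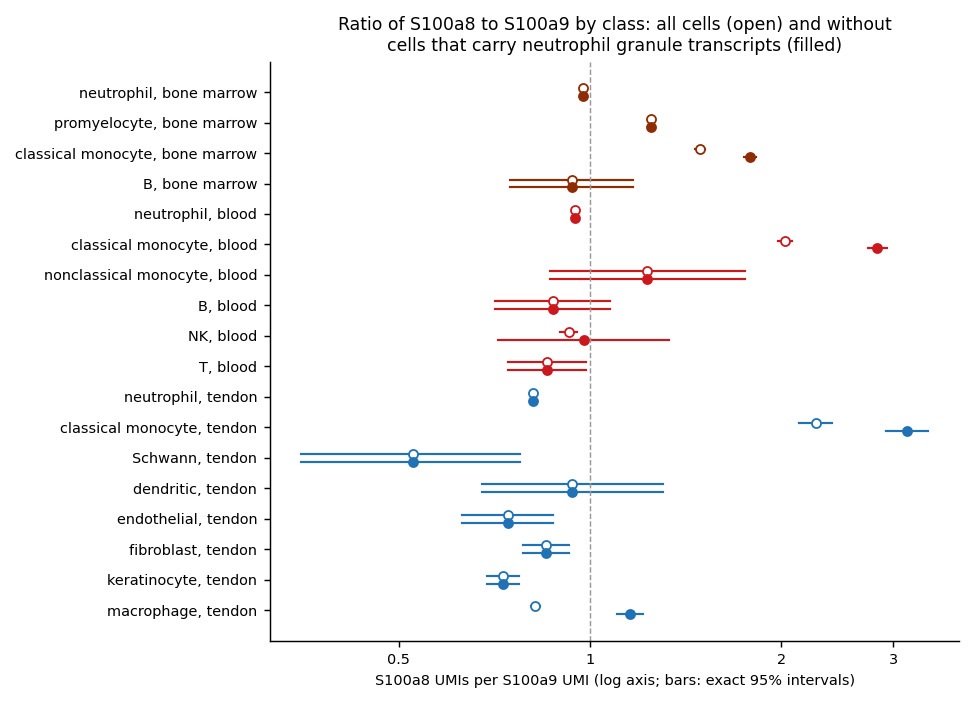
*S100a8* UMIs per *S100a9* UMI (log axis) by cell class and site, for all cells (open) and without granule-carrying cells (filled), with exact binomial intervals for counting error. Neutrophil-like cells lie just under 1 in marrow and blood and at 0.812 in tendon, while classical monocyte-like cells lie above 1 in every library.

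The nonclassical monocyte-like cells of blood (115 cells), a patrolling subset, were lower in every member than the classical ones in summed counts. All 6 passed the fold, against 9.57% of 5602 genes: *S100a8* by −5.30, *S100a9* by −4.57, *S100a10* by −2.98, *S100a6* by −2.14, *S100a4* by −1.49 and *S100a11* by −1.25 on the log2 scale. *S100a4* still stood at 1099 CPM and *S100a6* at 924 CPM, while *S100a8* stood at 79.7 CPM (62.7 to 100), against 55.2 CPM (49.7 to 61.1) in T-like cells, a type that should lack it. After thinning, 7.08% of nonclassical cells (3.11% to 13.5%) held an *S100a8* UMI, and 5.53% of T-like cells did. The *S100a8* levels of both classes thus differed beyond counting error, while the interval of the thinned share includes that of T-like cells. B-like cells of blood held 79.9 CPM of *S100a8* (68.4 to 92.7), so nonclassical cells did not stand above them. *S100a9* stood at 64.9 CPM in nonclassical, 64.4 in T-like and 91.4 in B-like cells. Without granule-carrying cells the log2 ratios to classical cells were −4.87 for *S100a8* and −3.66 for *S100a9*. The median share of a cell's UMIs in the pair was then 0.0123% in nonclassical and 0.0166% in classical cells. At the 90th percentile it was 0.0415% and 0.563%, so the pair differed far more in the upper cells than in the median cell. When no doublets were removed *S100a8* was −1.25 and *S100a9* turned to 0.18.

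Monocyte-like cells of the tendon held less of the pair than those of blood and were within 2-fold of them for the other 4 members. Compared with those of blood, *S100a8* stood at a log2 ratio of −1.99 and *S100a9* at −2.15, so 2 of 6 members were lower, against 12.3% of 6472 genes, while *S100a4* at −0.32, *S100a6* at −0.12, *S100a10* at 0.58 and *S100a11* at 0.57 stayed within the fold. A small part of the cells carried most of the pair at both sites, with 84.4% of the *S100a8* UMIs of tendon in 42 of 420 cells, and the median cell without granule-carrying cells had 0.0111% of its UMIs in the pair in tendon and 0.0166% in blood. Macrophage-like cells of the tendon (1672 cells) held 1065 CPM of *S100a4*, 1677 of *S100a6*, 923 of *S100a10* and 542 of *S100a11*, with 3 of 6 lower than in monocyte-like cells (*S100a11* by −2.06, *S100a4* by −1.22, *S100a6* by −1.16), against 4.57% of 9213 genes. *S100a9* was called higher (1.97), against 25.7% of those genes, but 7 of the 1672 macrophage-like cells held 86.1% of *S100a8* and 90.1% of *S100a9*. All 7 lay in 1 cluster of 62 cells with 5002 CPM of *Camp* and 4096 of *Ngp* and a median of 26539 UMIs, against 0.872 and 0.551 CPM and 13242.5 UMIs in the other macrophage-like cells. With granule-carrying cells left out of both classes (these 7 and the 2 monocyte-like ones) *S100a9* was −0.51 and *S100a8* −1.96. With no doublets removed *S100a4* and *S100a6* missed the fold (−0.94 and −0.91), as they did with the stricter cell filter (−0.97 for each).

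NK-like cells of blood (147 cells) held 6321 CPM of *S100a8* and 6832 of *S100a9*, and 1 of them held 98.9% and 99.0% of these, so without it the levels were 72.2 and 73.9 CPM, near those of T-like cells. NK-like cells had the highest *S100a10* of the large blood classes at 1574 CPM. B-like cells of blood held 594 CPM of *S100a10* and 60.9 of *S100a4*, and their *S100a6* lay mostly in a small cluster. The 37 cells of that cluster held 3781 CPM of *S100a6* (3610 to 3958), 1302 of *S100a10* and 260 of *S100a4*, and the other 333 B-like cells 47.0 (37.2 to 58.6), 390 and 3.57 CPM. A cluster of 59 T-like cells, with *Ikzf2* among its leading genes, likewise held 828 CPM of *S100a4* and 1677 of *S100a10*.

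Keratinocyte-like, Schwann-like and fibroblast-like cells of the tendon held more *S100a6* than its monocyte-like cells did (3736 CPM). Keratinocyte-like cells (184) held 8360 CPM of *S100a6*, Schwann-like cells (62) 6748, fibroblast-like cells (697) 4982 and endothelial-like cells (292) 3406 CPM. *S100a4*, often read as a fibroblast gene, was 1466 CPM in fibroblast-like cells, 1827 in Schwann-like cells, 2482 in monocyte-like cells and 2361 in dendritic-like cells, so it did not pick out fibroblast-like cells. A cluster of 39 fibroblast-like cells with tenocyte markers held 4419 CPM, and fibroblast-like cells as a class held 38.8% of tendon *S100a4* and 37.0% of its *S100a6* UMIs. The class was 14.6% of tendon cells. Its largest cluster (371 cells) had a median of 47431 UMIs, against 11082 over all tendon barcodes, so these shares also reflect depth. Keratinocyte-like cells also had the highest *S100a10* (1519 CPM) of the tendon classes with 50 or more cells.

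**Figure D5:**
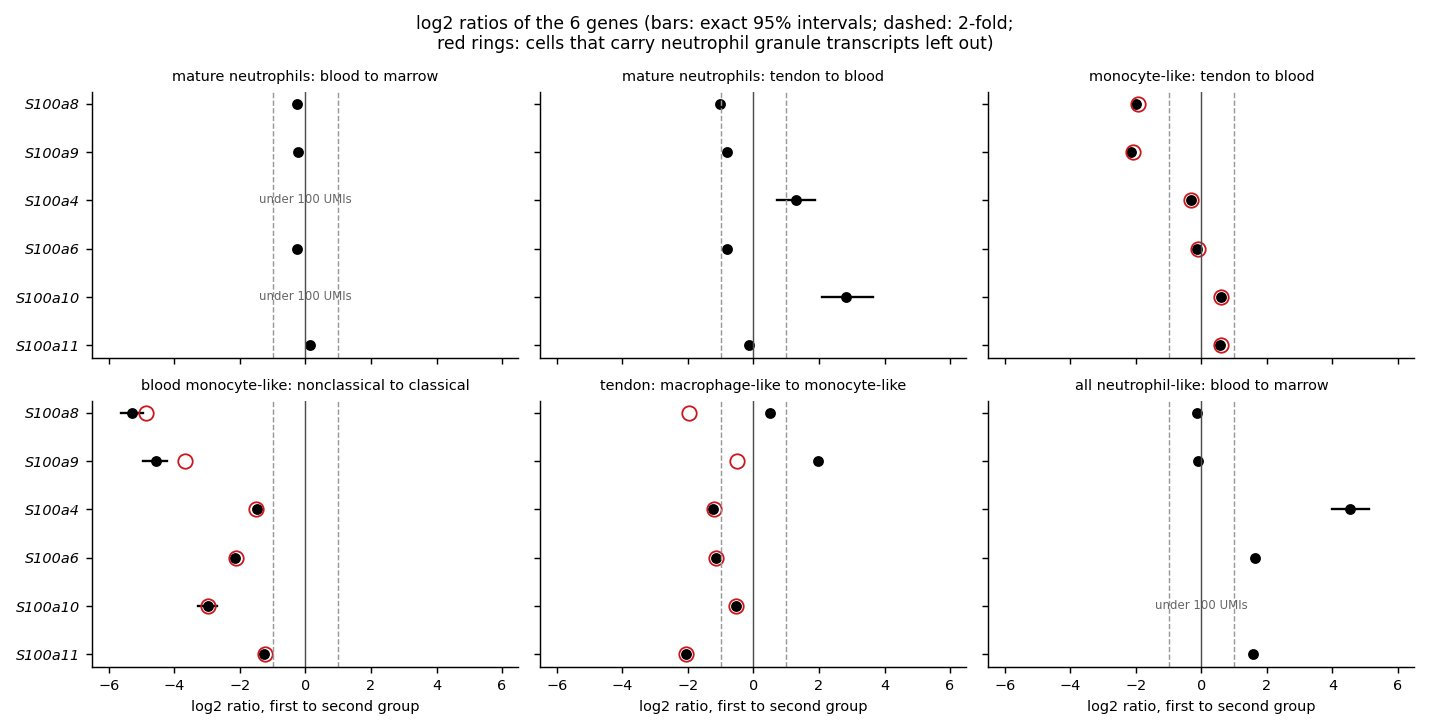
Log2 ratios of the 6 S100 genes in 6 comparisons, first group to second, with exact intervals for counting error, dashed lines at 2-fold, and red rings, in the monocyte-like and macrophage-like comparisons, for the values when granule-carrying cells are left out. The rings of *S100a8* and *S100a9* lie apart from the points in nonclassical against classical monocyte-like cells of blood. They do so too in tendon macrophage-like against monocyte-like cells, where *S100a9* goes from 1.97 to −0.51. They lie close to the points in tendon against blood monocyte-like cells, where *S100a9* goes from −2.15 to −2.09.

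The receptors and partners of these proteins, taken from lists, were followed in the same groups. *Tlr4*, the receptor for released S100A8 and S100A9, was 37.0 CPM in mature and 7.81 CPM in azurophil marrow cells, and 82.6 CPM in mature tendon cells against 45.2 CPM in those of blood. Of the 4 receptor genes, 0 of the 2 with enough UMIs were higher and 1 lower in the neutrophil-like cells of marrow, 1 of 3 higher and 2 lower in those of blood, and 1 of 3 higher and 2 lower in those of tendon. Over all genes 6.56%, 9.88% and 9.56% were higher and 50.9%, 56.7% and 67.0% lower in the same order. *Anxa2*, the partner of S100A10, was 196 CPM in azurophil and 1243 CPM in mature marrow cells, and *S100a10* itself was 93.7 and 1.35 CPM in these gates. The azurophil *S100a10* lay in promyelocyte-like cells (184 CPM, against 2.83 CPM in neutrophil-like ones), and *Anxa2* was not split in this way. *Ahnak*, a large scaffold that binds S100A10 and annexin A2, was 0.376 CPM in marrow neutrophil-like cells and 389 CPM in the other cells of that library. Of the 6 partner genes, 1 was higher and 2 lower in the neutrophil-like cells of marrow, 2 higher and 3 lower in those of blood, and 1 higher and 3 lower in those of tendon, against the same shares of all genes. With so few genes, these counts do not set either list apart from all genes.

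Across the 18 class-by-library groups of 50 or more cells, the genes most like each member by Pearson r of log2(CPM + 1) among 10497 genes were as follows. *S100a8* was most like *S100a9* (0.993), *Wfdc21* (0.955) and *Padi4* (0.940), and *S100a9* most like *S100a8*, *Wfdc21* (0.9235) and *Padi4* (0.923). *S100a4* was most like *Ccdc109b* (0.909), *Sumf1* (0.898) and *Ahnak* (0.893), *S100a6* most like *Anxa2* (0.8895), *Tmem120a* (0.861) and *Reep3* (0.856). *S100a10* was most like *Slc39a10* (0.923), *Mrpl52* (0.918) and *Aig1* (0.907), and *S100a11* most like *Sesn2* (0.898), *Slc16a3* (0.870) and *Osgin1* (0.865). The groups share libraries and depth, and these are descriptions with no test.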

How the data were processed

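Raw UMI counts deposited by the authors for 3 libraries (10x 3′ v3) had not been normalized, and came from Cell Ranger, version 5.0.1 in the file headers, and from mm10 in the submitters' processing notes. Cells with at least 200 genes and at most 20% mitochondrial UMIs were kept, and the top Scrublet scores (0.8% per 1000 cells) were removed as doublets, which left 1813, 2146 and 4780 cells with medians of 22836, 8316 and 11082 UMIs over all barcodes. Each library was clustered with scanpy 1.11.5 (2000 variable genes without the S100 genes, 30 components, 15 neighbours, Leiden resolution 1). A cluster was named when at least 3 markers of a class, and more than of any other, stood among its 50 leading genes. At least 3 had to be found in 10% of cells, and no other class could have more among the first 10 leading genes. A cluster far shallower than its library also needed a marker among those 10. This rule was settled after the clusters were seen. A tendon cluster of 458 cells, with 8 macrophage and 6 classical monocyte markers among its leading genes, stayed unnamed and is in neither class. Counts were summed per class or gate, with exact intervals from scipy 1.17.1. The intervals of ratios were checked only on simulated Poisson counts, which lack the uneven spread between cells seen here. Genes named were the 6 members, set lists of other S100 genes, receptors and partners with at least 100 UMIs, and the 3 most similar genes of each member. Other genes, such as leading genes of clusters, were chosen after their values were seen. The members and lists were chosen with earlier results of these data known. Positions are from GENCODE M21 by Ensembl identifier, and promoters from RefSeq. A planned comparison within T-like cells is not reported here.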

Additional observations from a re-analysis of the deposited data

How the results depend on the processing

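Alternatives were another clustering resolution, the libraries clustered together, the S100 genes kept among variable genes, a stricter cell filter, no doublet removal, other gate thresholds, other scaling and another minimum of UMIs. Alternatives added after the data were seen left out granule-carrying cells, promyelocyte-like cells or the macrophage-like cluster with *Camp* and *Ngp*. Of 157 counts of members past the fold, 144 stayed within 1.5 times and 13 moved. The count for mature against granule-high cells was 4 with joint clustering (2 in the report), and for blood against marrow granule-high cells it was 1 with doubled gates (0). For mature cells of blood against marrow it was 1 at resolution 0.5, 2 with joint clustering and 2 at a minimum of 20 UMIs (0). For tendon against blood neutrophil-like cells it was 1 with joint clustering, 4 with no doublets removed and 4 with totals without *S100a8* and *S100a9* (2), and for mature cells it was 1 with gates halved, 1 with gates doubled and 5 with those totals (3). For macrophage-like against monocyte-like cells of tendon it was 1 with the strict filter and 2 with no doublets removed (4). That scaling moved the median of all genes by between −0.29 and 0.59.

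Of 856 log2 ratios, 11 reversed. Cycling against azurophil, *S100a4* was 2.89 at resolution 0.5 and 2.39 with joint clustering, and *S100a10* was 0.54 and 0.61. Tendon against blood neutrophil-like cells, *S100a10* was −1.77 at resolution 2, −1.89 with the S100 genes kept and −1.75 with the strict filter, settings in which blood neutrophil-like cells held 142, 156 and 141 CPM of it, against 7.05 CPM. *S100a9* was 0.18 in nonclassical against classical monocyte-like cells with no doublets removed. In macrophage-like against monocyte-like cells it was −1.11 with joint clustering, −1.82 without the cluster with *Camp* and *Ngp* and −0.51 without granule-carrying cells. The cause was not tested. Alternatives that remove cells show in which cells the UMIs lay, and not why they lay there. No paired analysis was possible because each site was 1 library. Depth limits *S100a4* and *S100a10* in neutrophil-like cells, which rest on 37, 109 and 76 and on 44, 26 and 93 UMIs in marrow, blood and tendon.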

Other observations

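Several other S100 genes of the feature table had UMIs in tendon cells that are not leukocytes. *S100a14* stood at 940 CPM in keratinocyte-like cells. *S100a16* stood at 738 CPM in keratinocyte-like, 413 CPM in endothelial-like and 352 CPM in Schwann-like cells. *S100b*, a marker of glia, stood at 270 CPM in Schwann-like cells, and *S100a13* at 485 CPM in endothelial-like cells, against 197 CPM in marrow neutrophil-like cells and 209 CPM in the other cells of marrow. Of the 7 other S100 genes with enough UMIs in tendon, 7 were lower in neutrophil-like cells than in the rest of the library, where 67.0% of all genes were.

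Among receptors, *Cd36*, a scavenger receptor that binds lipids, was 260 CPM in nonclassical and 2.0 CPM in classical monocyte-like cells of blood, and 193 CPM in macrophage-like against 7.82 CPM in monocyte-like cells of tendon. *Bsg*, a receptor for S100A9, was 393 CPM in fibroblast-like cells of tendon and 106 CPM in its neutrophil-like cells. *Anxa1*, the partner of S100A11, was 3916 CPM in marrow neutrophil-like cells and 534 CPM in the other cells there, and 588 CPM in mature tendon against 1511 CPM in mature blood cells.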
